A study of Mus musculus with 4 samples.

Results

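The sonic hedgehog pathway was followed here through 9 genes. They were the ligand Shh, Disp2 of the Dispatched family, and the receptors Ptch1 and Hhip. The transducers Smo and Sufu and the transcription factors Gli1, Gli2 and Gli3 completed the list. Every probe set whose platform annotation gives exactly 1 of these symbols was taken, which made 24 probe sets, for 9 of the 18193 genes named on the array. The samples were 4 laser captures of cerebellar Purkinje cells, which are inhibitory and carry the output of the cerebellar cortex, from intact, untreated male C57BL/6J mice aged 8 weeks. They came as 2 samples from each of 2 animals and are named by animal and sample as 1-1, 1-2, 2-1 and 2-2. The sources used here do not give how the cells were recognized for cutting, or whether the samples of 1 animal were separate captures.

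Shh is a secreted, lipid-modified protein that Dispatched proteins help to release. It binds Ptch1, which otherwise holds the membrane protein Smo inactive, and active Smo works through the primary cilium to free Gli transcription factors from their inhibitor Sufu. Gli1, Ptch1 and Hhip are themselves targets of the pathway, and Ptch1 and Hhip both bind the ligand and limit its reach. In the young cerebellum Purkinje cells secrete Shh, which drives the division of granule cell precursors. In the adult mouse, Purkinje cells still make Shh, and Bergmann glia, whose fibres wrap the Purkinje cells, are known as responding cells.

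Values are deposited signals on a linear scale where single samples are given, and quantile-normalized log2 levels where means and differences are given. A probe set was called above background on an array where its level passed the bound of that array, the 95th percentile over 54 background genes, each typical of an organ outside the brain. On the deposited scale the bound corresponded to signals of 57.1, 49.8, 65.6 and 87.3 in samples 1-1, 1-2, 2-1 and 2-2. Of the background genes, Krt10 and Tff1 passed the bound on all 4 arrays. Purkinje cell markers lay above it on all 4 arrays in 11 of 12 cases. Median deposited signals were 8.40 to 11.4 per array, and having only 4 arrays limits how precise any value is. Signals of different genes are not ranked, since each probe set responds to RNA in its own way.

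Shh, Ptch1 and Smo each had 1 probe set above background on all 4 arrays. The other 6 genes had none. All named genes passed in this way in 26.5% of cases (4827 of 18193), so 3 of 9 genes is near the share of the whole array. By probe set, 3 of 24 passed on all 4 arrays, against 16.2% of all probe sets, and 18 of 24 passed on none, against 72.2%. With the stricter 99th percentile as the bound, Shh and Ptch1 remained above it and Smo did not.

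**Figure D1:**
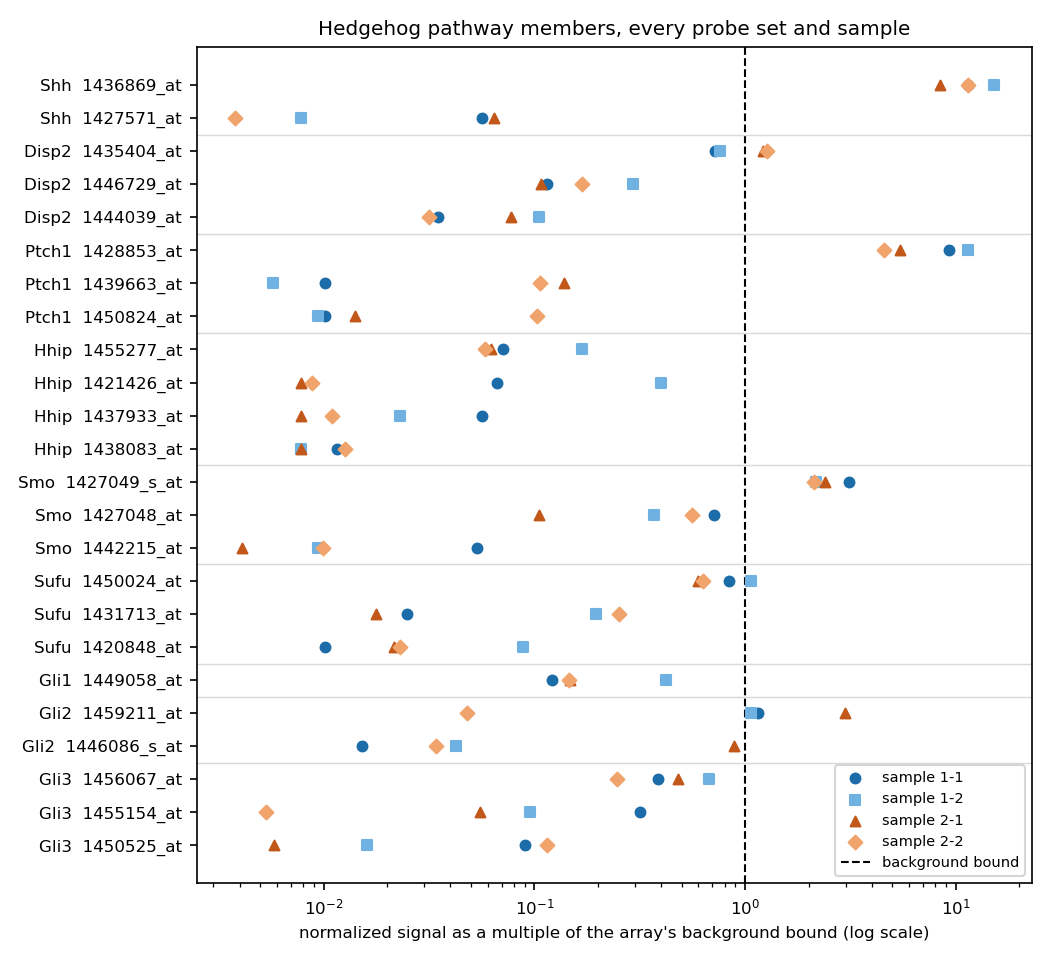
Each row is 1 probe set of a hedgehog pathway gene, and each point is 1 sample, with the normalized signal as a multiple of that array's background bound on a log scale. Shh 1436869_at lies 8.37 to 15.2 times above the bound, Ptch1 1428853_at 4.58 to 11.4 times and Smo 1427049_s_at 2.13 to 3.11 times, while Disp2 1435404_at, Sufu 1450024_at and Gli2 1459211_at lie on both sides of it.

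The ligand gene Shh gave deposited signals of 673.5, 776.1, 541.0 and 968.7 in samples 1-1, 1-2, 2-1 and 2-2 on probe set 1436869_at. All 4 samples were far above the bound, and both the lowest and the highest of them came from animal 2. The normalized level was 9.50 ± 0.34 (SD, n = 2 animals), on average 11.3 times the bound. Its other probe set, 1427571_at, gave 3.6, 0.4, 3.7 and 0.3 and lay below the bound on every array. The value of Shh therefore belongs to 1 of 2 probe sets, which the annotation ties to different sequence records.

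Disp2, one of the mammalian relatives of the fly ligand release protein Dispatched, stood at the edge of detection. Its brightest probe set, 1435404_at, gave 41.6 and 38.6 in the samples of animal 1 and 80.1 and 111.8 in those of animal 2. It passed the bound in both samples of animal 2 and in neither of animal 1. The remaining probe sets, 1446729_at with 6.5 to 15.9 and 1444039_at with 2.2 to 5.9, lay below the bound on every array.

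Ptch1, the ligand's main receptor and a brake on Smo, gave 539.3 and 585.6 in samples 1-1 and 1-2 and 357.3 and 392.9 in samples 2-1 and 2-2 on probe set 1428853_at. Both samples of animal 2 were lower than both of animal 1, and all 4 were well above the bound. The normalized level was 8.83 ± 0.78 (SD, n = 2 animals), on average 7.15 times the bound. On 1439663_at the signals were 0.6, 0.3, 8.4 and 8.2, and on 1450824_at they were 0.6, 0.5, 0.9 and 8.0. Those probe sets lay far below the bound on every array, so their order between animals is not read.

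Hhip, a membrane protein that binds hedgehog ligands and is itself a pathway target, was below the bound on all 4 arrays with all 4 of its probe sets. The highest of its 16 signals was 21.3, on 1421426_at in sample 1-2, where the other samples gave 4.2, 0.5 and 0.7. On 1455277_at the signals were 3.5 to 9.2, on 1437933_at 0.5 to 3.6 and on 1438083_at 0.4 to 1.0. A level below the bound says that no signal was told apart from background on these arrays, not that the transcript was absent.

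Smo, the membrane protein that passes the signal on when Ptch1 is bound, gave 178.8, 107.2, 160.6 and 186.4 in the order of samples on probe set 1427049_s_at. Sample 1-2 was the lowest and the animals overlapped. The normalized level was 7.27 ± 0.19 (SD, n = 2 animals), on average 2.42 times the bound. A second probe set annotated to the same sequence record, 1427048_at, gave 41.1, 19.7, 6.3 and 47.9 and was below the bound on every array, as was 1442215_at with 0.3 to 3.4. The suffix of 1427049_s_at marks a probe set that can bind several transcripts.

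Sufu, the inhibitor that holds Gli proteins back, gave 47.9, 53.1, 37.9 and 54.3 on probe set 1450024_at. These signals were close to the bound, which sample 1-2 alone passed. Another probe set made from the same sequence record, 1420848_at, gave 0.6 to 5.0, and 1431713_at gave 1.5, 10.7, 1.1 and 20.2. Neither passed the bound on any array. When the 90th percentile set the bound, Sufu and Disp2 lay above it on all 4 arrays, and 35.9% of all named genes did so too.

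Gli1, the activator whose transcript is widely used as a readout of the pathway, had 1 probe set. On 1449058_at the signals were 7.6, 22.3, 9.0 and 11.5, all below the bound. The normalized level was 3.53 ± 0.48 (SD, n = 2 animals), and the highest sample, 1-2, was at 0.42 times its bound.

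Gli2, the main activator upstream of Gli1, lay on both sides of the bound. On 1459211_at the signals were 65.6, 53.0, 198.6 and 3.6, so that 3 samples passed the bound and sample 2-2 was far below it. The highest and the lowest sample both came from animal 2. The other Gli2 probe set, 1446086_s_at, which the annotation ties to the same sequence record, gave 0.9, 2.6, 57.2 and 2.6. Its highest sample was again 2-1, still below the bound.

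Gli3, which acts mainly as a repressor in the absence of ligand, was below the bound on every array on all 3 probe sets. On 1456067_at the signals were 23.4, 34.2, 29.4 and 19.7, the highest at 0.67 times its bound. They ranged from 0.4 to 19.7 on 1455154_at and from 0.4 to 8.9 on 1450525_at, with no order that both samples of an animal shared on the latter.

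Shh, Ptch1 and Smo, the 3 genes above background, each had another probe set below the bound on every array. Of 3555 named genes with several probe sets and at least 1 above the bound on all 4 arrays, 2584 (72.7%) did too. This spread among the probe sets of 1 gene was therefore common on these arrays.

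Promoter windows of RefSeq, 250 bases before to 50 after a gene's start in GRCm38.p6, were held for 6 of the 9 genes, Ptch1, Hhip, Smo, Sufu, Gli2 and Gli3. The windows of Ptch1 and Smo, the receptor and transducer above background, are shown to set them side by side, in lower case with each CG dinucleotide in capitals. The Ptch1 window is chr13:63565686-63565985 on the minus strand and the Smo window chr6:29735247-29735546 on the plus strand, as the table gives them.
Ptch1: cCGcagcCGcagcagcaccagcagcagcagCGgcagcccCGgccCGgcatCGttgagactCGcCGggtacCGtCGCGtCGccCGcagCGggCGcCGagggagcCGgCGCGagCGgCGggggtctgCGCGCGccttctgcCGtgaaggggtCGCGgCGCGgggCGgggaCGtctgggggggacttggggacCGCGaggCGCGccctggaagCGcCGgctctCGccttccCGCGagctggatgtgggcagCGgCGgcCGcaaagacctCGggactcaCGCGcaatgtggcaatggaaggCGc
Smo: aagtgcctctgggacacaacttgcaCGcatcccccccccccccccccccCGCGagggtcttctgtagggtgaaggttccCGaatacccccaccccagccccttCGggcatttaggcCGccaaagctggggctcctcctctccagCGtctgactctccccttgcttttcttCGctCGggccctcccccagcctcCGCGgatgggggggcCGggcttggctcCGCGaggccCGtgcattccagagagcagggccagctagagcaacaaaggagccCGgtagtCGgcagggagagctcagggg
The Ptch1 window held 47 CG dinucleotides, and 1.44% of all 32851 windows held as many or more. Smo held 17, a number that 31.4% of windows reached, and the median window held 7. Gli3, Hhip, Gli2 and Sufu held 39, 30, 28 and 12. Of the 6 windows, 3 thus belonged to genes below the bound or at its edge yet held more than Smo.

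The binding sequence of Gli proteins, GACCACCCA on either strand, was found in 0 of the 6 windows and in 0.253% of all windows. Its shorter core, ACCACCC, which lies within it, was in the Gli2 window and in 4.61% of all windows. AGGTCA, the core bound by the orphan receptor Rora and other nuclear receptors, was in 0 of the 6 and in 16.3% of all windows. Such matches describe these letters only, and most known control regions of the pathway lie outside windows of this length.

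The comparison of animal 2 with animal 1 asked how far the members' levels repeated between these 2 mice. Neither animal was treated and their labels are identical. The test sets the difference between the animals against the spread of the samples within an animal, so it does not reach to other mice. No member was called by limma with Benjamini-Hochberg adjustment over the 10212 probe sets that passed the bound on 2 or more arrays. Of these 0.431% were called, 26 (0.255%) higher and 18 (0.176%) lower in animal 2. The 5 member probe sets tested had adjusted p-values from 0.0963 to 0.759, and 1 of them, of Ptch1, had an unadjusted p under 0.05, as did 1861 of all probe sets tested. The median difference over the 5 was -0.49 on the log2 scale, against -0.05 over all probe sets tested. The 5 include Disp2, which passed the bound only in animal 2, and Gli2, whose sign rested on single samples. This median is therefore not read as a direction of the members.

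Ptch1 stood at a normalized level of 9.38 in animal 1 and 8.28 in animal 2, a difference of -1.10 ± 0.23 (SE, n = 2 samples per animal, limma adjusted p = 0.0963) and 2.15 times higher in animal 1. The 95% interval ran from -1.65 to -0.55 and is not adjusted for the number of probe sets. Ptch1 was called without sample 2-1 (-1.18, adjusted p = 0.0320, limma) and without sample 2-2 (-1.04, adjusted p = 0.0388, limma), settings under which 7.91% and 9.14% of all probe sets tested were called. It was not called without sample 1-1 (-1.13, adjusted p = 0.715, limma) or 1-2 (-1.05, adjusted p = 0.624, limma). On deposited values, which raised the median over all tested probe sets to 0.47 in favour of animal 2, Ptch1 stood at -0.58 (adjusted p = 0.190, limma).

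Shh stood at 9.74 in animal 1 and 9.25 in animal 2, a difference of -0.49 ± 0.25 (SE, n = 2 samples per animal, limma adjusted p = 0.352) with a 95% interval from -1.08 to 0.11. The samples of the animals did not overlap after normalization, with 9.64 and 9.84 against 8.97 and 9.54. They overlapped as deposited, where the difference was 0.0019. Smo differed by -0.26 ± 0.38 (adjusted p = 0.759, limma) with an interval from -1.18 to 0.65, and its sign turned on deposited values (0.32) and without sample 1-1 (0.11).

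Disp2, on 1435404_at, stood at 5.59 in animal 1 and 6.27 in animal 2, a difference of 0.68 ± 0.55 (SE, n = 2 samples per animal, limma adjusted p = 0.561). It entered the test only through animal 2, whose samples were the ones above the bound, so its direction is not read. Gli2, on 1459211_at, differed by -1.62 ± 1.78 (adjusted p = 0.674, limma). The Gli2 value rested on single samples, since it was 1.31 without sample 2-2. Without sample 2-1 it was called (adjusted p = 0.0286, limma), but animal 2 was then represented by sample 2-2 alone, at background, so that value is not read as a size. The normalized samples of the animals did not overlap for Shh, Ptch1 and Disp2. For Disp2 the filter went with this separation, and 49.8% of all probe sets tested had animals that did not overlap.

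**Figure D2:**
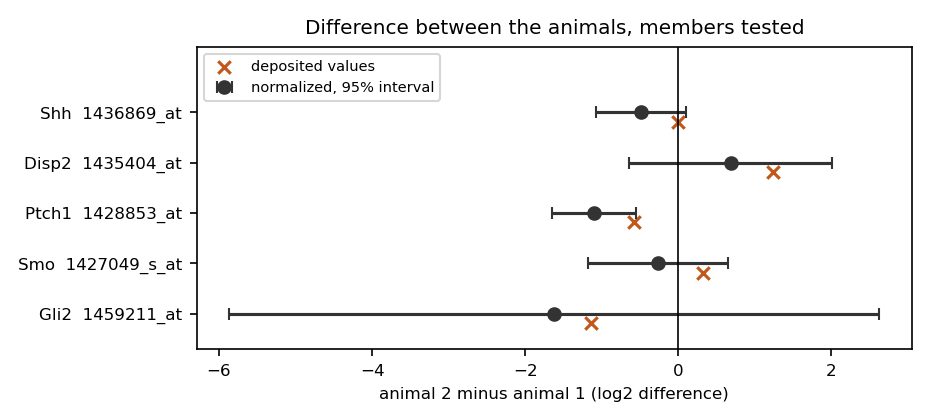
The points give the difference between animal 2 and animal 1 on the log2 scale for the 5 member probe sets tested, with 95% intervals from limma, and the crosses give the same difference on deposited values. The interval of Ptch1 1428853_at, from -1.65 to -0.55, is the 1 that leaves out 0 before adjustment, and the crosses of all 5 lie to the right of the points.

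Markers of the neighbouring cells were measured in the same samples, because Bergmann glia are known to hold Ptch1 and Gli1 transcripts. Bergmann glia and astrocyte markers lay above the bound on all 4 arrays in 13 of 18 cases, and Hes5, Slc6a11 and Sox9 were below it on every array. Their summed normalized signal was 15825 and 15183 in the samples of animal 1 and 13568 and 12500 in those of animal 2, lower in animal 2 as Ptch1 was. Their summed deposited signal was 13443 and 13146 against 14584 and 15985, on arrays that were brighter as a whole in animal 2 (trimmed mean signals of 71.4 and 87.1 against 54.9 and 56.7). In such captures a lower share of cells of a type and less RNA per cell cannot be told apart.

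Granule cell markers were above the bound on all 4 arrays in 5 of 14 cases, and Barhl1, Grin2c, Pax6, Slc17a7 and Zic2 were below it on every array. Their summed normalized signal was 4875 and 5667 in animal 1 and 2617 and 2902 in animal 2, and the 8 tested had a median difference of -1.25. Bergmann glia markers had a median difference of -0.15 over 14 tested, and Purkinje cell markers of 0.07 over 12. The summed normalized signal of Purkinje cell markers was 66254 and 66846 in animal 1 and 72538 and 72127 in animal 2, higher in both samples of animal 2. The part of Bergmann glia or granule cell RNA in the values of Shh, Ptch1 and Smo was not tested.

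Fewer markers of other cells were above background. Oligodendrocyte markers passed on all 4 arrays in 3 of 10 cases, with summed normalized signals of 5132 and 4768 in animal 1 and 4277 and 3370 in animal 2, and with Cldn11, Mag, Mog, Olig2 and Sox10 below the bound on every array. Interneuron markers passed in 2 of 9 cases (472 to 541), with Grm2, Kit, Slc6a5, Sorcs3, Sst and Tfap2b below it on every array. Blood vessel and meninges markers passed in 1 of 12 cases, with sums of 393 and 457 in animal 1 and 256 and 183 in animal 2 and with 8 below it on every array, among them Pecam1, Kdr and Col1a1. The summed normalized signals of the oligodendrocyte list and of the blood vessel and meninges list were lower in both samples of animal 2. So were those of the Bergmann glia and granule cell lists. Interneuron sums were 472 and 510 in animal 1 and 488 and 541 in animal 2. As deposited, blood vessel and meninges sums stayed lower in both samples of animal 2. Deposited granule cell sums also stayed lower, with 4098 and 4859 in animal 1 and 2824 and 3790 in animal 2. Deposited oligodendrocyte sums overlapped, with 4397 and 4150 in animal 1 and 4544 and 4328 in animal 2. The part of these lists in the value of Ptch1 was not tested.

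**Figure D3:**
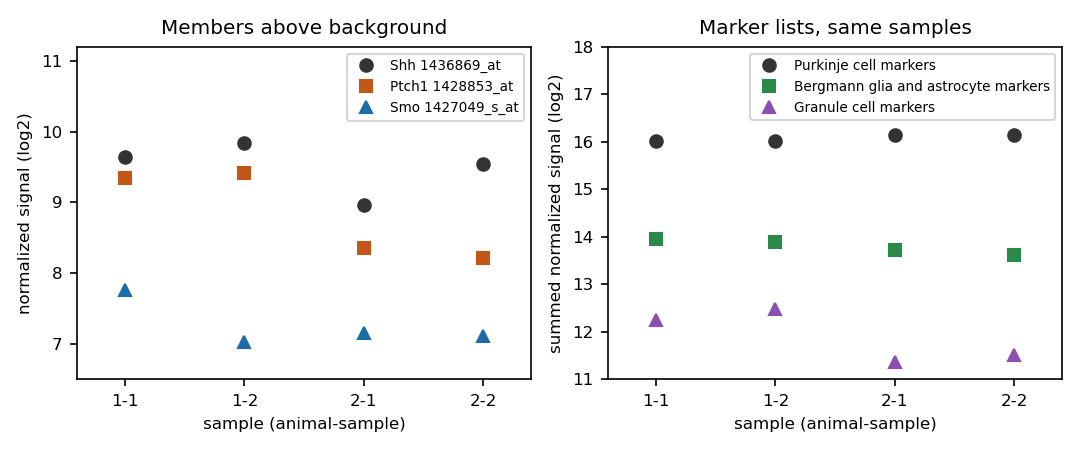
The left panel gives the normalized log2 signal of the 3 members above background in each sample, and the right panel the summed normalized signal, on a log2 axis, of Purkinje cell, Bergmann glia and granule cell markers in the same samples. Ptch1 stands at 9.34 and 9.42 in animal 1 and at 8.35 and 8.21 in animal 2, and the granule cell markers are also lower in both samples of animal 2.

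The rest of the pathway was read from 60 other genes grouped by role, of which 56 had a probe set with 1 symbol. Of these 56, 18 lay above the bound on all 4 arrays with at least 1 probe set, 11 on some arrays and 27 on none. As shares, 32.1% passed on all 4 arrays and 48.2% on none, against 26.5% and 57.7% of all named genes. Between the animals 42 of their probe sets were tested, 24 with positive and 18 with negative differences, with a median difference of 0.11 against -0.05 over all probe sets tested. Ift172 1423068_at and Rab23 1454876_at and 1452113_a_at, counted among the 24, passed the bound only in the samples of animal 2. Their sign went with the filter, so these counts and the median are not read as a direction. None of the 42 was called by limma with Benjamini-Hochberg adjustment, and 8 of the 42 had an unadjusted p under 0.05, against 18.2% of all probe sets tested. On deposited values Csnk1a1 (1.05, adjusted p = 0.0334) and Prkar1a (1.37, adjusted p = 0.0311, limma) were called higher in animal 2, as were 6.36% of all probe sets tested. Without sample 2-2, Numb (-1.54, adjusted p = 0.0296), Csnk1g3 (-1.36, adjusted p = 0.0381) and Fbxw11 (-0.49, adjusted p = 0.0277, limma) were called lower in animal 2, as were 6.39% of all.

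None of the 7 other genes of ligands and ligand release passed the bound on any array. They were the ligand genes Ihh and Dhh, Disp1, the acyltransferase Hhat that adds the ligand's lipid, and Scube1, Scube2 and Scube3, which carry the released ligand. Disp1, the Dispatched protein with the established role in release, gave 16.5, 12.4, 27.7 and 13.9 on 1435132_at, and on its other probe set, 1434795_at, 8.0, 4.2, 63.6 and 28.2. In sample 2-1 the latter reached 0.97 times the bound. Hhat gave 6.6, 13.8, 19.9 and 19.7 on 1455962_at. Ihh gave 7.6 to 10.7 on 1450704_at and Dhh 0.3 to 5.4 on 1434959_at, so that Shh was the 1 hedgehog ligand gene above background here.

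Among 6 co-receptors and surface regulators, Gas1 and Mgrn1 lay above the bound on all 4 arrays. Gas1, an anchored co-receptor that helps ligand binding, gave 485.0, 291.0, 325.7 and 268.1 on 1416855_at, on average 5.21 times the bound. As deposited, sample 1-1 was the highest and the other 3 were close to each other. Normalized levels were 9.20 and 8.44 in animal 1 and 8.21 and 7.65 in animal 2 (-0.89 ± 0.36, SE, n = 2 samples per animal, limma adjusted p = 0.265). Of the further Gas1 probe sets, 1448494_at passed on 2 arrays and 1456322_at on none. The difference on 1448494_at had the other sign (0.57 ± 0.64, adjusted p = 0.677, limma). Mgrn1, a ubiquitin ligase that removes Smo from the surface, gave 72.8, 76.3, 146.3 and 254.2 on 1454645_at. The co-receptors Cdon, with 29.0 to 60.6 on 1434957_at, and Boc, with 9.5 to 20.3 on 1427516_a_at, were below the bound on every array, as were Lrp2 and Gpc3.

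Of 11 genes of the cilium and of Smo transport, Kif3a alone was above the bound on all 4 arrays. Kif3a, a motor subunit that builds the cilium and also carries other cargo in axons, passed with all 4 of its probe sets and gave 256.9, 203.2, 271.6 and 481.1 on 1436560_at. Rab23, a GTPase that restrains the pathway, gave 49.1 and 44.5 in animal 1 and 123.4 and 111.3 in animal 2 on 1454876_at. This probe set passed only in the samples of animal 2 and entered the test through them, so its direction is not read. The normalized difference was 0.75 ± 0.50 (SE, n = 2 samples per animal, limma adjusted p = 0.469). Rab23 probe set 1452113_a_at gave 23.9, 48.1, 152.4 and 137.0 in the order of samples (1.55 ± 0.59, adjusted p = 0.242, limma). It too passed only in the samples of animal 2, so its direction is not read either. Rab23 probe set 1422399_a_at passed on no array. The intraflagellar genes Ift88 and Dync2h1 were below the bound on every array, and Ift172 passed on 2.

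The Gli regulators were the group with the most genes above background, 13 of 19 on all 4 arrays. They were Fbxw11, Csnk1d, Prkaca, Csnk1a1, Prkar1a, Cul3, Gsk3b, Numb, Csnk1g3, Cul1, Spop, Itch and Btrc. Apart from Numb, these are parts of kinases and ubiquitin ligases that also serve many other pathways. Fbxw11, a substrate receptor that marks Gli proteins for processing, gave 3908.3, 3869.0, 3428.1 and 5443.2 on 1437468_x_at, but 316.3, 236.7, 350.4 and 608.5 on its next probe set, 1425462_at. Csnk1d, a casein kinase, gave 1953.2, 2078.0, 2506.2 and 2760.7 on 1437690_x_at and 98.7, 99.6, 218.6 and 248.3 on 1456727_a_at. The suffix x_at marks probes that can bind other transcripts. The lower probe sets 1425462_at and 1456727_a_at passed the bound on all 4 arrays as well. Each of these genes had 5 probe sets, of which 2 passed on all 4 arrays. Kif7 and Stk36, of the same list, were below the bound on every array.

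Among 13 genes known as targets in granule cell precursors or other tissues, Bmi1 and Bcl2 lay above the bound on all 4 arrays. Bmi1, a Polycomb protein, gave 236.2, 248.9, 479.5 and 586.0 on 1417493_at, with both samples of animal 2 above both of animal 1 (0.60 ± 0.25, SE, n = 2 samples per animal, limma adjusted p = 0.266). Bcl2, a survival protein, gave 64.6, 101.9, 82.6 and 111.8 on 1457687_at, while its other 4 probe sets were below the bound on every array. Mycn, which carries the growth response of granule cell precursors, gave 69.2, 56.2, 59.9 and 93.1 on 1417155_at and passed on 3 arrays. Sample 2-1 was the exception. Atoh1, the transcription factor of those precursors, and the cyclin genes Ccnd1 and Ccnd2 were below the bound on every array, with signals of at most 34.0 on their brightest probe sets.

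**Figure D4:**
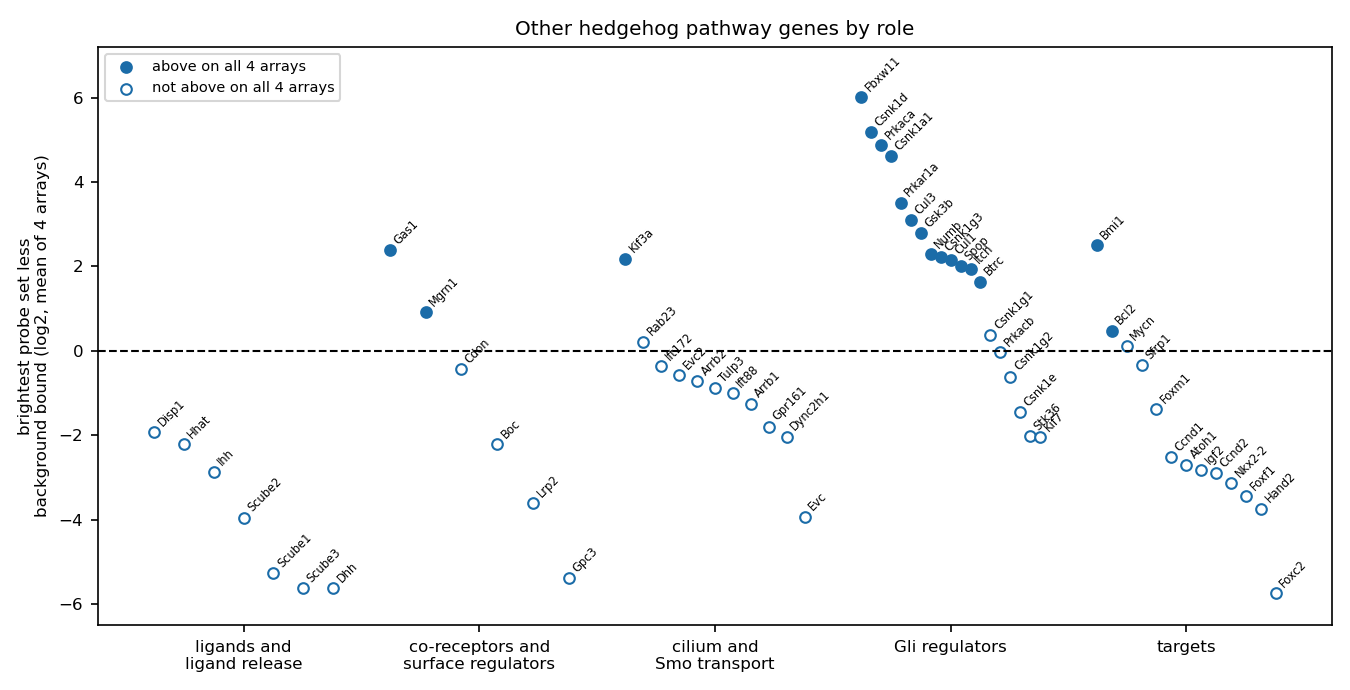
Each point is 1 other hedgehog pathway gene, placed by role, with the log2 distance of its brightest probe set from the background bound averaged over the 4 arrays, and filled points are genes above the bound on all 4 arrays. Gli regulators hold 13 of the 18 filled points, and all 7 genes of ligands and ligand release lie below the bound.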

How the data were processed

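Expression was measured on Affymetrix arrays in 4 laser-captured samples. Per the submitters' processing notes, the authors made the deposited intensity values, linear signals with 1 per probe set and array, with GCOS. The sources used here do not give its version, signal algorithm or scaling target. Scanner files and detection calls were not used, and the table held 0 columns of other samples.

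Gene symbols came from the platform's annotation table (34945 with 1 symbol, 932 with several, 9160 with none and 64 controls), and were checked through a RefSeq table of GRCm38.p6. Controls were dropped, signals were floored at 0.1 and moved to the log2 scale. The trimmed means of the arrays (2% from each end) differed by 47.7% of their average, more than the 5% allowed, so quantile normalization was applied. The bound used the brightest probe set of each of 54 matched background genes (60 listed). Animals were compared in limma 3.58.1 under R 4.3.3 (lmFit, then eBayes allowing the variance to follow the mean), at a false discovery rate of 0.05. The steps were tested on simulated data.

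The members and lists were chosen with earlier results of these data known. Members were described on every probe set. Of the other pathway genes, all above the bound on all 4 arrays were named, with values for the 2 per role with the largest margin over the bound and for genes called under an alternative. Cdon, Boc, Ihh, Dhh, Mycn, Atoh1 and the cyclins, and further genes given without values, were named after their values were seen. Listed genes without a matched probe set were not analysed here.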

Additional observations from a re-analysis of the deposited data

Results flagged for a closer look

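Among 42 probe sets scanned (24 of members and 18 of other pathway genes), 4 had 1 sample far from the other 3 of the group, and a scan of this kind picks out about 5% of groups by chance. Gli1 stood at a normalized log2 level of 4.66 in sample 1-2 on 1449058_at, above 3.08 to 3.25 in the others, with all 4 below the background bound. Ptch1 on its dim probe set 1450824_at stood at 2.74 in sample 2-2, above the other samples and also below the bound. Fbxw11 on 1437468_x_at stood at 11.64 in sample 2-1, and Csnk1g3 on 1429383_at at 7.14 in the same sample, both lower than in the other 3 samples. The cause was not tested.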

How the results depend on the processing

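The count of member genes above background was 3 (26.5% of all named genes) and stayed within 1.5 times under the 99th percentile bound (2, Smo lost, with 18.5% of all named genes), all probe sets of the background genes (4, Disp2 gained, with 32.6%), deposited values, scaling to 1 trimmed mean and leaving out each sample (3 to 4, Gli2 gained without sample 2-2). It was 5 genes on 5 probe sets with the 90th percentile bound (Disp2 and Sufu gained, with 35.9% of all named genes) and 5 on 5 when passing on at least 2 of 4 arrays was enough (Disp2 and Gli2 gained, with 35.8%). The count of member probe sets called between animals was 0 in the main comparison and under 6 alternatives (deposited values, scaling, an offset of 16, no filter, a filter on all 4 arrays and no trend), and 0 to 2 when a sample was left out (Ptch1 and Gli2 without 2-1, Ptch1 without 2-2). Other pathway probe sets called were 2 on deposited values and 0 to 3 when a sample was left out (3 without 2-2). Over all probe sets the calls numbered 44, against 662 on deposited values, 187 with the filter on all 4 arrays, 5 with no filter, 0 with no trend (1634 at an unadjusted p under 0.05), 6 and 2 without sample 1-1 or 1-2, and 748 and 869 without 2-1 or 2-2. When a sample of 1 animal is left out, the residual spread comes from the other animal alone and the lone sample is assumed to vary like it. Directions turned for Shh (0.0019) and Smo (0.32) on deposited values, for Smo without sample 1-1 (0.11, with -0.63 to 0.11 over the samples left out) and for Gli2 without sample 2-2 (1.31, with -4.47 to 1.31), none of these turned values called. The planned second background list was the 1 used, since no other list was at hand, so that alternative was not run. No paired analysis was possible because the 4 samples form 1 group.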
